A study of Homo sapiens with 5 samples.

Results

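The mature products of the human hairpins MIR205 and MIR31 (hsa-miR-205-5p, hsa-miR-205-3p, hsa-miR-31-5p and hsa-miR-31-3p, below without the species prefix) were followed in attached and suspended mammary epithelial cells. They were taken by name from the human miRNA rows of the count tables, 4 of 2565 rows, and all 4 passed the low-count filter that left 697 rows for testing. All libraries came from MCF10A, a line of human breast epithelial cells that is immortalized but does not form tumours and has basal features. Per the labels, 2 libraries came from detached cells, kept for 24 h on a 2% poly-HEMA coating that prevents adhesion, and 3 from attached cells on uncoated plates. All cells were maintained in DMEM/F12 with horse serum, epidermal growth factor, insulin, cholera toxin and hydrocortisone. The series' text has both groups cultured for 24 h, whereas the time label gives 24 h to the detached and 0 h to the attached libraries, so attachment and time in culture cannot be told apart.

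MIR205 and MIR31 are known from stratified and basal epithelia. miR-205-5p is abundant in the basal layer of skin, in myoepithelial and basal mammary cells and in squamous tumours, and represses ZEB1 and ZEB2 together with the miR-200 family, which helps to keep cells epithelial. miR-31-5p is a keratinocyte miRNA that represses HIF1AN, an inhibitor of HIF activity, and in breast cancer cells it represses RHOA and the integrin subunit ITGA5. A hairpin is cut into a 5p and a 3p strand, of which usually the guide is kept in an Argonaute protein while the passenger is degraded; for both hairpins the 5p strand is the guide.

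The mature strands are shown because the counts are given per named strand. They also hold the seed, bases 2 to 8, which sets which mRNAs a miRNA pairs with. The seed is in capitals, and the sequences are RefSeq's on GRCh38.p14, where 3 of the 4 names were matched.
miR-205-5p: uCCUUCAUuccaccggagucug
miR-205-3p: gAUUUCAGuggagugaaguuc
miR-31-5p: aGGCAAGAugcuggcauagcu
The fourth member is miR-31-3p. The 3 seeds differed from each other, and 0 of the other 2369 human mature miRNAs in the table shared any of them. The closest other human sequence had 5 mismatches to miR-205-5p, 6 to miR-205-3p and 5 to miR-31-5p. None of these strands thus has a near-identical copy among the human miRNAs compared. Sequences of other species were not compared. The strands are 22, 21 and 21 nt long, inside the 18 to 24 nt window that was cut from the gel.

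The hairpins are shown with the strands above in capitals, 5′ to 3′, to place the arms whose balance is compared below.
MIR205: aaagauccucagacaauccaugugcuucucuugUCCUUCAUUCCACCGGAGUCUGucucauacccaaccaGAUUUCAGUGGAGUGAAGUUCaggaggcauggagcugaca
MIR31: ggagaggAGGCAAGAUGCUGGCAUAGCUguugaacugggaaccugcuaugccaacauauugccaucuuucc
In GENCODE 29 on hg38, MIR205 (chr1:209432133-209432242, plus strand) overlaps an exon of its host gene MIR205HG, and MIR31 (chr9:21512115-21512185, minus strand) lies in an intron of its host gene MIR31HG. Neither hairpin has another miRNA gene within 10000 bp. The nearest is 191 kb from MIR205 and 796 kb from MIR31. MIR31 lies 456 kb from CDKN2A, a tumour suppressor gene that MCF10A is described as having lost, and reads of both MIR31 arms were present in all 5 libraries.

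Human miRNA counts totalled 10533740 to 15793173 in the detached and 8805009 to 12153778 in the attached libraries, and levels are given as counts per 1000000 of these totals (CPM). A count of 3 corresponds to at most 0.341 CPM, far below the level of any of these miRNAs in any library. The library of attached replicate 2 stood apart: over the 697 tested miRNAs its Spearman correlation with the other libraries was 0.812 to 0.857, against 0.927 to 0.961 among the other 4. This library held the lowest level of 356 (51.1%) and the highest level of 155 (22.2%) of the 697. It is therefore given by its own value, and the fold changes and count ratios of the 4 strands are given with and without it. Whether replicates came from separate cultures is not in the labels, so the spread behind each p-value may be technical. In these bulk samples, fewer cells making a miRNA and less of it per cell cannot be told apart.

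hsa-miR-205-5p was one of the most abundant miRNAs in both conditions, and its level did not separate detached from attached cells. hsa-miR-205-5p measured 52415 and 82383 CPM in detached replicates 1 and 2, and 60959, 17078 and 56804 CPM in attached replicates 1, 2 and 3. The detached libraries lay on both sides of attached replicates 1 and 3, and attached replicate 2 was at least 3.07-fold below every other library. It ranked 3 and 2 among human miRNAs in the detached libraries and 2, 9 and 3 in the attached ones. The means were 67399 ± 21191 CPM in detached (SD, n = 2) and 44947 ± 24225 CPM in attached cells (SD, n = 3), with a log2 fold change, detached over attached, of 0.58 (SE 0.58, 95% interval -0.76 to 1.92, edgeR adjusted p 0.914). Without attached replicate 2 the attached mean was 58881 ± 2938 CPM (SD, n = 2) and the log2 fold change 0.19 (SE 0.35, interval -0.58 to 0.97, edgeR adjusted p 0.968).

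miR-31-5p, the guide strand of the other hairpin, was at least 13.4-fold scarcer than miR-205-5p in every library and likewise overlapped between the groups. hsa-miR-31-5p measured 2374 and 3445 CPM in the detached libraries, and 4564, 817 and 3699 CPM in attached replicates 1, 2 and 3. Both detached libraries were below attached replicates 1 and 3 and above attached replicate 2. The log2 fold change was -0.06 (SE 0.75, 95% interval -1.79 to 1.68, edgeR adjusted p 0.990) with all libraries and -0.51 (SE 0.42, interval -1.44 to 0.43, edgeR adjusted p 0.835) without attached replicate 2. Its direction depended on single libraries: it turned positive without detached replicate 1 (0.19), without attached replicate 1 (0.37) and without attached replicate 3 (0.11).

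**Figure D1:**
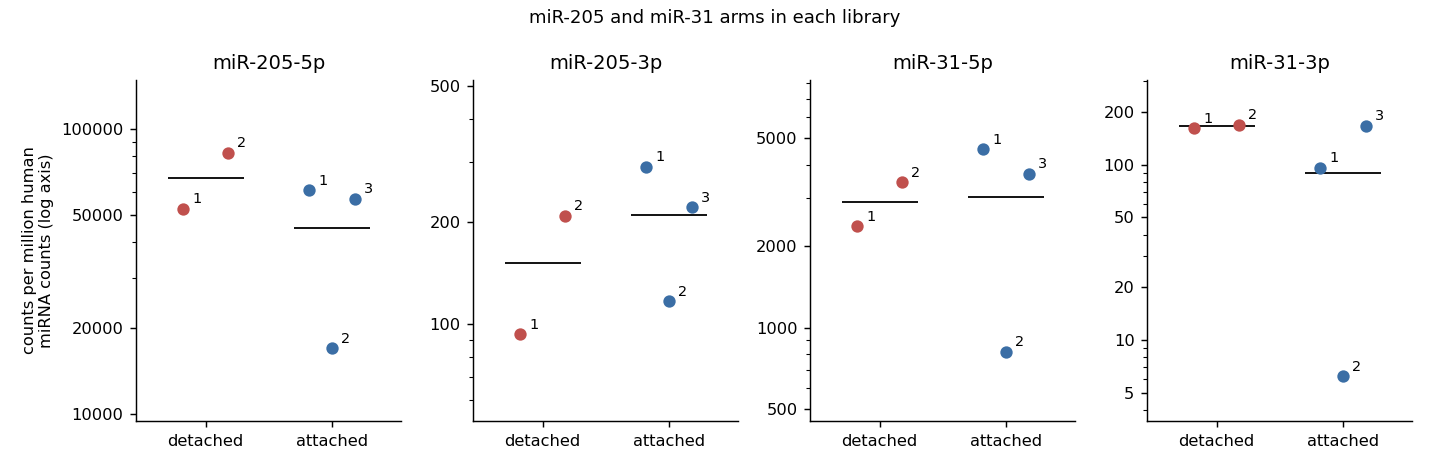
Level of each strand in every library, in CPM on a log axis that differs between panels. Points are libraries with their replicate number, and bars are group means. The groups overlap in all 4 panels, and attached replicate 2 is the lowest library in every panel but that of miR-205-3p.

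The passenger strands were far scarcer than their guides. hsa-miR-205-3p measured 93.7 and 208 CPM in detached, and 290, 117 and 221 CPM in attached replicates 1, 2 and 3. Its lowest value was thus in detached replicate 1, and detached replicate 2 lay within the attached range. The log2 fold change was -0.47 (SE 0.71, 95% interval -2.13 to 1.19, edgeR adjusted p 0.946), and -0.76 (SE 0.56, interval -2.01 to 0.49, edgeR adjusted p 0.809) without attached replicate 2. It was -0.01 without detached replicate 1, -1.16 without detached replicate 2, -0.16 without attached replicate 1 and -0.43 without attached replicate 3.

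miR-31-3p was the strand in which attached replicate 2 deviated most. hsa-miR-31-3p had 2555 and 1782 counts (162 and 169 CPM) in the detached libraries, and 1166, 55 and 1724 counts (95.9, 6.25 and 167 CPM) in attached replicates 1, 2 and 3. The detached libraries lay close together, and attached replicate 3 fell between them. Attached replicate 2 was 15.4-fold to 27.1-fold below the other libraries, and of the 171 tested miRNAs with a mean of at least 100 CPM, 7, this strand included, were as far below the lowest of the other libraries there. The log2 fold change was 0.88 (SE 1.10, 95% interval -1.68 to 3.44, edgeR adjusted p 0.935) with all libraries and 0.33 (SE 0.52, interval -0.84 to 1.50, edgeR adjusted p 0.951) without attached replicate 2.

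Of these 4 miRNAs, 0 were called at an adjusted p under 0.05 by edgeR's quasi-likelihood test, and 0 had an unadjusted p under 0.05. The same test called 0.0% of the 697 human miRNAs higher and 0.0% lower in detached cells, with 39 higher and 7 lower at an unadjusted p under 0.05. Without attached replicate 2 it called 1.77% of 679 higher and 0.0% lower, and again 0 of the 4. The groups' CPM values overlapped for all 4, while 26.8% of the tested miRNAs had groups that did not overlap, 18.1% higher and 8.75% lower in detached cells. In a count added after seeing the data, with attached replicate 2 left out, the values of miR-205-3p and miR-31-5p no longer overlapped, both lower in detached cells, as the groups of 38.5% of the 697 miRNAs did not overlap in either direction; those of the other two still did. With all libraries the 95% intervals reach past 2-fold in both directions for miR-205-3p, miR-31-5p and miR-31-3p and upward for miR-205-5p. Without attached replicate 2 they reach past 2-fold downward for miR-205-3p and miR-31-5p, upward for miR-31-3p, and in neither direction for miR-205-5p. The authors' deposited table, with detached over attached log2 fold changes, lists 0.24 for miR-205-5p, -0.76 for miR-205-3p, -0.32 for miR-31-5p and 0.57 for miR-31-3p, each with an adjusted p of 0.998.

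**Figure D2:**
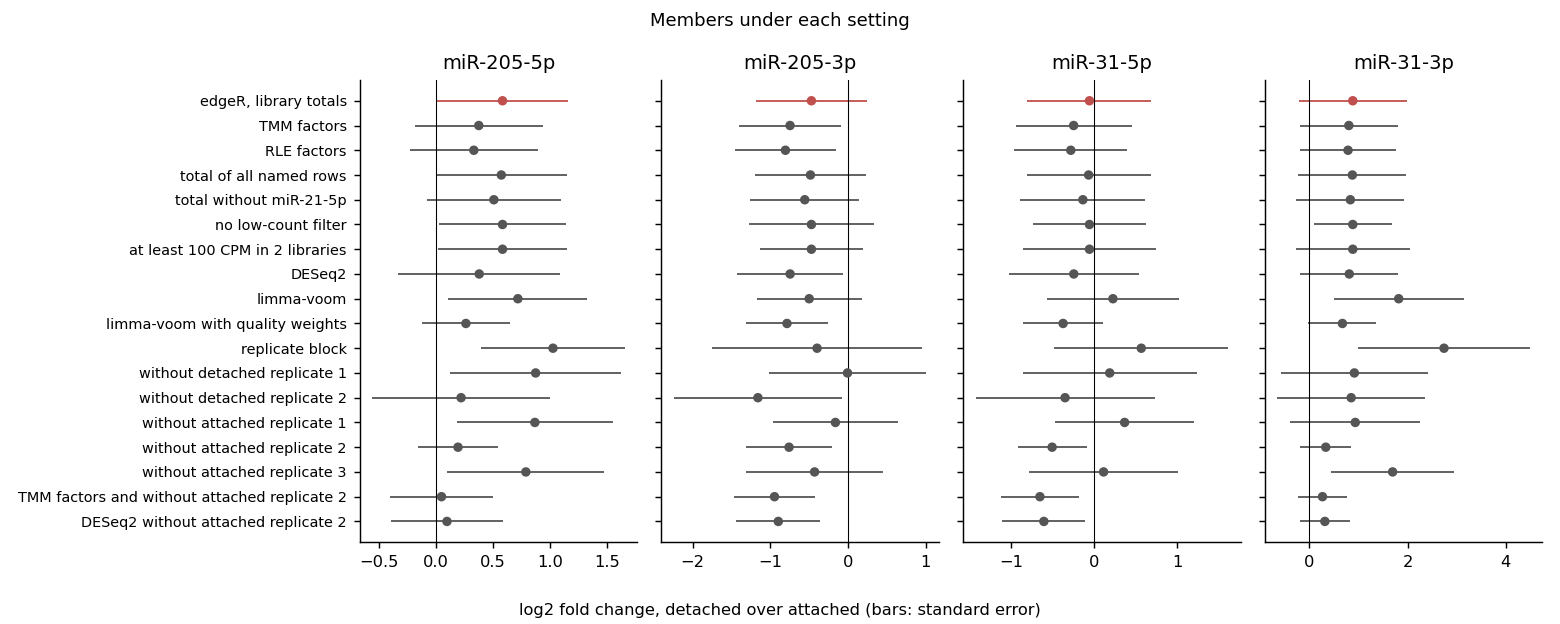
Log2 fold change, detached over attached, of each strand under the main setting (top row, red) and 17 alternatives, with standard errors as bars. miR-205-5p and miR-31-3p stay above 0 and miR-205-3p below 0 in every row, while miR-31-5p lies between -0.65 and 0.57, on both sides of 0.

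The ratio of the arms did not overlap between the groups in either hairpin, with opposite directions, as in 29.2% of the 178 human hairpins with both arms tested. The ratio is formed inside a library, so library scaling cancels. For MIR205 there were 559 and 395 reads of the 5p strand per read of the 3p strand in the detached libraries, and 210, 146 and 257 in attached replicates 1, 2 and 3. Both detached ratios were above all attached ones, as the passenger strand took 0.178% and 0.252% of MIR205 reads in detached against 0.474%, 0.680% and 0.388% in attached cells. The exact binomial 95% intervals of the nearest pair, which cover counting error only, were 0.242 to 0.263% in detached replicate 2 and 0.372 to 0.404% in attached replicate 3. The log2 ratio averaged 8.88 ± 0.35 in detached (SD, n = 2) and 7.64 ± 0.41 in attached libraries (SD, n = 3), a difference of 1.24. The two-sided exact permutation p was 0.1, the smallest that 3 libraries against 2 allow, so this design cannot reach 0.05.

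For MIR31 the shift went toward the passenger strand. There were 14.7 and 20.4 reads of miR-31-5p per read of miR-31-3p in the detached libraries, and 47.6, 131 and 22.1 in attached replicates 1, 2 and 3. The passenger share was 6.38% and 4.68% in detached, against 2.06%, 0.759% and 4.32% in attached cells. Detached replicate 2 and attached replicate 3 nearly met, with exact binomial 95% intervals of 4.47 to 4.90% and 4.12 to 4.52% that overlap. The log2 ratio averaged 4.11 ± 0.33 in detached (SD, n = 2) and 5.69 ± 1.28 in attached libraries (SD, n = 3), a difference of -1.57 with a two-sided exact permutation p of 0.2. Without attached replicate 2 the differences were 1.02 for MIR205 and -0.91 for MIR31, each with a two-sided exact permutation p of 0.333, the smallest that 2 against 2 allow.

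**Figure D3:**
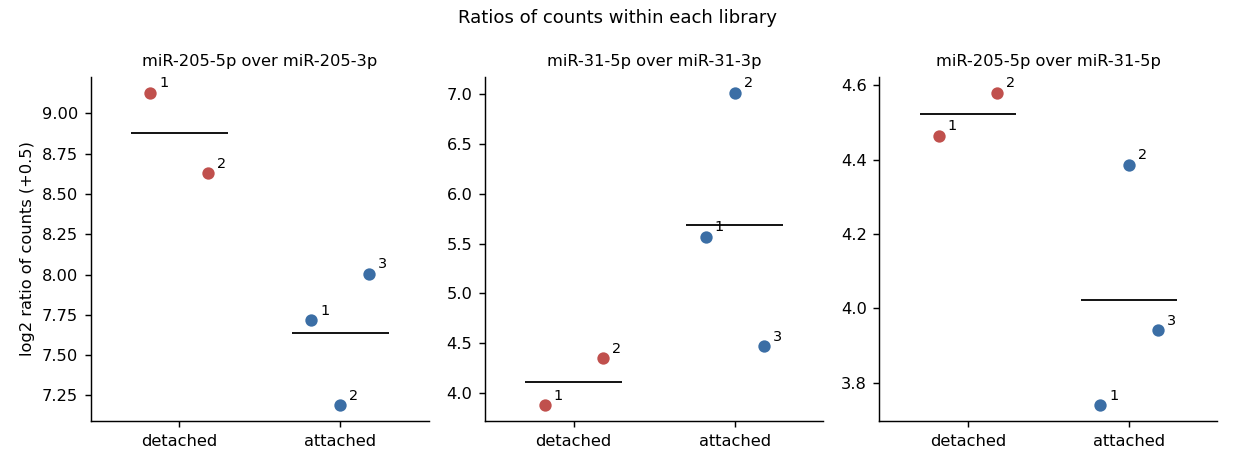
Log2 ratios of counts inside each library, with 0.5 added to each count: 5p over 3p of MIR205, 5p over 3p of MIR31, and miR-205-5p over miR-31-5p. Points are libraries with their replicate number, and bars are group means. The detached libraries are above all attached ones in the first and last panels and below them in the middle panel.

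Such separation was common among hairpins. Of 178 human hairpins with both arms tested, 29.2% had arm ratios whose groups did not overlap, 14.0% higher and 15.2% lower in detached cells, and in 50.0% the log2 fold changes of the arms had opposite signs. By size of the difference, MIR31 ranked 44 and MIR205 ranked 65 of 178, and the median absolute difference was 0.88. limma over the 178 log2 ratios, a test added after seeing the data, gave an adjusted p of 0.614 for MIR205 and 0.612 for MIR31, and called 0.0% of hairpins, with 13 at an unadjusted p under 0.05. Without attached replicate 2 limma's adjusted p was 0.545 for MIR205 and 0.597 for MIR31, again with 0.0% called, and 17 at an unadjusted p under 0.05. In that setting, also counted after seeing the data, 41.6% of hairpins had arm ratios whose groups did not overlap and 39.1% of 174 had arms of opposite sign, while MIR205 ranked 45 and MIR31 ranked 56 of 178 by size, with a median absolute difference of 0.53.

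**Figure D4:**
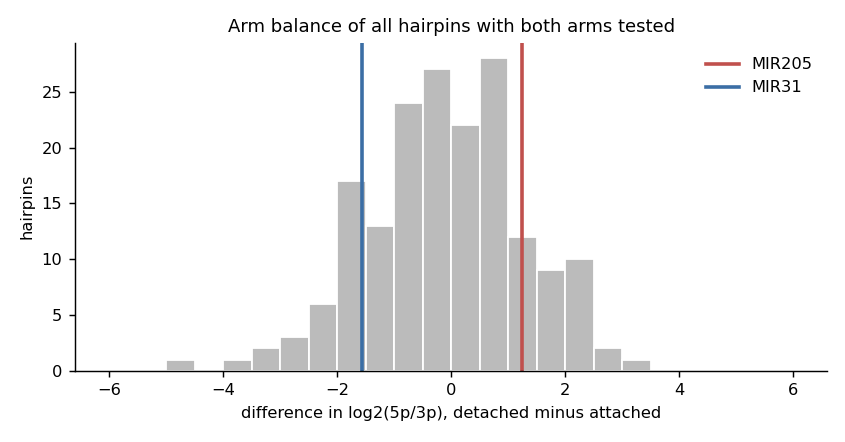
Difference in the log2 ratio of 5p to 3p counts, detached minus attached, for the 178 hairpins with both arms tested, counted in bins of 0.5. The lines mark MIR205 at 1.24 and MIR31 at -1.57, both inside the bulk of the distribution.

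Over all 5 libraries the ratio of the guide strands to each other varied less than either level, which spanned 4.82-fold for miR-205-5p and 5.59-fold for miR-31-5p. This rested on attached replicate 2. Without it the levels spanned 1.57-fold and 1.92-fold, while the ratio still ran from 13.4 to 23.9 and so varied more than the level of miR-205-5p. There were 22.1 and 23.9 reads of miR-205-5p per read of miR-31-5p in the detached libraries, and 13.4, 20.9 and 15.4 in attached replicates 1, 2 and 3. Both detached ratios were above the attached ones, though only slightly above attached replicate 2. The log2 ratio averaged 4.52 ± 0.08 in detached (SD, n = 2) and 4.02 ± 0.33 in attached libraries (SD, n = 3), a difference of 0.50 with a two-sided exact permutation p of 0.2, and 0.68 without attached replicate 2, with a two-sided exact permutation p of 0.333. Set against each of the other 696 tested miRNAs in the same way, miR-205-5p gave ratios whose groups did not overlap for 27.2%, or 40.2% without attached replicate 2.

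The miRNAs whose profile over the 5 libraries was most like each strand were found by the root-mean-square difference of centred log2(CPM + 1) values, among 170 others with a mean of at least 100 CPM. For miR-205-5p these were miR-148a-3p (0.10), miR-149-5p (0.18) and miR-574-3p (0.20), against a median of 0.84 over the 170. miR-148a-3p measured 785 and 1059 CPM in detached, and 771, 233 and 708 CPM in attached replicates 1, 2 and 3. Like miR-205-5p, it was lowest in attached replicate 2 and highest in detached replicate 2. For miR-31-5p they were let-7a-3p (0.23), let-7i-3p (0.24) and miR-29c-5p (0.30), with miR-205-5p in place 4 (0.32). Both guide strands thus had profiles closer to each other than to their own passenger strands, which stood in place 66 for miR-205-5p (0.68) and 104 for miR-31-5p (1.06). These distances include attached replicate 2 and were not computed without it. That library was at least 3.07-fold, 2.91-fold and 15.4-fold below the others for miR-205-5p, miR-31-5p and miR-31-3p, so its drop weighs on them. miR-205-3p was nearest to miR-218-5p (0.24), miR-503-5p (0.30) and miR-28-5p (0.31), and miR-31-3p to miR-744-5p (0.30), the joint row of miR-365a-3p and miR-365b-3p (0.33) and miR-296-5p (0.41). miR-744-5p shared the drop of miR-31-3p, with 392 and 371 CPM in detached, and 297, 27.9 and 478 CPM in attached replicates 1, 2 and 3.

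Lists of other epithelial miRNAs gave the context of these cells. The 5 members of the miR-200 family, which shares the targets ZEB1 and ZEB2 with miR-205, were all tested: 4 had positive and 1 a negative log2 fold change (3 and 2 with RLE factors), 0 were called, and the median was 0.64, against 0.20 over all 697 miRNAs. miR-200b-3p gave 1.20 (SE 0.71) and miR-200c-3p 0.96 (SE 0.77), or 0.83 and 0.47 without attached replicate 2. The family summed to 32633 to 35767 CPM in detached libraries, and to 32385, 24521 and 31678 CPM in attached replicates 1, 2 and 3. Of 6 squamous epithelial miRNAs 4 were tested, 4 positive (3 with TMM or RLE factors), with a median of 1.25 and 0 called. In that list miR-203a-3p, which promotes keratinocyte differentiation, gave 3.62 (SE 0.70, edgeR adjusted p 0.145) and miR-224-5p 1.23 (SE 0.69). edgeR called 1 member of that list, miR-203a-3p, higher without attached replicate 2, where it called 1.77% of 679 miRNAs higher.

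Of the other miRNAs that mark basal mammary cells, 5 of 5 tested had negative log2 fold changes, under every scaling tried, with a median of -0.50 and 0 called. Over all miRNAs, 404 of 697 were positive. Of the 5, miR-99a-5p (-0.02, SE 0.70) and miR-125b-5p (-0.03, SE 0.55) had fold changes that were small beside their standard errors. Without attached replicate 2 they gave -0.40 (SE 0.46) and -0.38 (SE 0.37). miR-222-3p and miR-221-3p each gave -2.43 (SE 1.09 and 1.10), with 55278 and 52352 CPM in attached replicate 2, where miR-205-5p was lowest, and without that library they gave -0.74 and -0.58. Of the 4 luminal mammary miRNAs 3 were positive, with a median of 0.16 and 0 called, whereas 1 was positive with TMM or RLE factors. miR-149-5p of that list gave 0.87 (SE 0.71) and miR-190b -0.51 (SE 0.62).

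Markers of other cell types were scarce. The 7 blood miRNAs summed to 22.1 to 22.9 CPM in detached libraries, and to 14.2, 5.79 and 19.2 CPM in attached replicates 1, 2 and 3. Of these miRNAs 4 were tested, 4 positive (3 with TMM or RLE factors), with a median of 0.34 and 0 called. miR-451a of red cells gave 1.53 (SE 0.88), or 1.03 (SE 0.52) without attached replicate 2, and miR-142-3p of white cells 0.44 (SE 0.95), or -0.07 (SE 0.55) without it. The 5 stromal and endothelial miRNAs summed to 49.5 to 78.0 CPM in detached libraries, and to 35.5, 16.5 and 26.1 CPM in attached replicates 1, 2 and 3. The 3 tested were positive, with a median of 2.18 and 0 called. Of the 3, 2 had an unadjusted edgeR p under 0.05, miR-145-5p at 4.20 (SE 0.73) and miR-143-3p at 2.18 (SE 0.92). edgeR called 1 of these 3, miR-145-5p, higher without attached replicate 2, where it called 1.77% of 679 miRNAs higher. miR-145-5p was scarce, with 11, 6 and 4 counts in attached replicates 1, 2 and 3, against 267 and 81 in detached replicates 1 and 2. The third tested, miR-126-3p, gave 0.44 (SE 0.83), or -0.02 (SE 0.52) without attached replicate 2. The 4 muscle miRNAs summed to 11.7 and 0.0949 CPM in detached replicates 1 and 2, and to at most 1.40 CPM in attached libraries. The higher sum came from miR-1-3p, with 183 counts in detached replicate 1 and 1 in detached replicate 2. Of the 4, 2 were at 0 counts in every library, miR-133a-3p and miR-133b. The 3 neural and liver miRNAs summed to at most 10.3 CPM in detached and 8.53 CPM in attached libraries. In each of these last lists 1 member was tested and 0 were called. Without attached replicate 2, positive members were 4 of 5 in the miR-200 family, 3 of 4 in the squamous, 0 of 5 in the basal, 3 of 4 in the luminal, 2 of 4 in the blood and 2 of 3 in the stromal and endothelial list, with medians of 0.58, 0.81, -0.58, 0.28, 0.28 and 3.13 in this order, against 0.05 over all 679 miRNAs tested. The part of other cells in the levels of miR-205 and miR-31 was not tested. Rows named for miR-205 or miR-31 of other species, 73 in all, held 0 counts. So did all 20869 miRNA rows of other species, and 0 of the 73 were named for horse. These rows therefore cannot show whether any reads came from the horse serum.

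**Figure D5:**
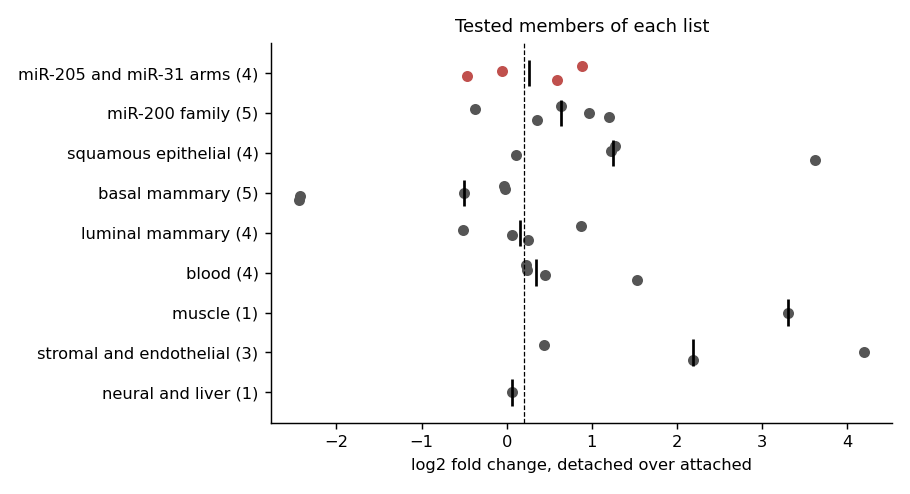
Log2 fold change, detached over attached, of the tested members of each list with all 5 libraries and library totals, with the number tested in brackets. Short bars are list medians and the dashed line is the median over all 697 tested miRNAs, 0.20. The 4 arms of miR-205 and miR-31 lie between -0.47 and 0.88, on both sides of that line.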

How the data were processed

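Small RNAs of 18 to 24 nt were size-selected from 50 µg of TRIzol-extracted total RNA, per the labels' protocols. The deposited tables hold raw read counts per named small RNA for each library. The submitters' processing notes name hg38 and DESeq2 without a role, and for the aligner and counter the sources used here give no name. Per the file headers, the authors' own comparison table holds log2 fold changes with standard errors, a test score, p-values and normalized signal (counts over library size factors); 100% of these came out as whole reads (tolerance 0.01), all equal to the raw counts. An edgeR fit on those reads called 0 of 687 human miRNAs.

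The members and lists were chosen with earlier results of these data known. The test on counts of the 2565 human rows used edgeR 4.0.16 (R 4.3.3; library size the total of human rows, filterByExpr with minimum count 10 and minimum total 15, quasi-likelihood F test, two-sided), with Benjamini-Hochberg adjustment over the 697 rows kept and a threshold of 0.05. Standard errors are the absolute log2 fold change over the square root of F. Ratios took counts + 0.5 and exact permutation over the 10 splits of libraries. Alternatives were TMM and RLE factors, other totals, other filters, DESeq2 1.42.0, limma 3.58.1 (voom), a replicate block and leaving out each library. The fit was tested on simulated data. Chi-square between libraries of the same group was 729 to 4220 times its degrees of freedom, so none was taken as a duplicate. Named miRNAs were the members, the 3 nearest profiles of each, and the 2 smallest p of each list with at least 2 tested. Other miRNAs (miR-99a-5p, miR-125b-5p, miR-126-3p, miR-1-3p, miR-133a-3p, miR-133b) were named after their values were seen. Binomial intervals hold counting error alone: no molecular identifiers are described, so reads can be copies of the same molecule.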

Additional observations from a re-analysis of the deposited data

How the results depend on the processing

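None of the 4 miRNAs was called under any of the 18 alternatives run for each, with edgeR, limma or DESeq2 adjusted p from 0.491 to 1.000, and miR-205-5p, miR-205-3p and miR-31-3p kept their direction in all of them. miR-31-5p reversed with limma-voom (0.23) and with the replicate block (0.57), and ran from -0.51 to 0.37 as each library was left out; the cause was not tested. Leaving out each library gave 0.19 to 0.87 for miR-205-5p, -1.16 to -0.01 for miR-205-3p, 0.33 to 1.69 for miR-31-3p, 0.99 to 1.49 for the arm ratio of MIR205, -2.18 to -0.91 for that of MIR31 and 0.36 to 0.68 for miR-205-5p over miR-31-5p. TMM factors moved the median of all log2 fold changes by -0.24 and RLE factors by -0.29, and relative to that median miR-205-5p stood at 0.39 with library totals, 0.42 with TMM and 0.43 with RLE factors. Over all human miRNAs, 0 were called in either direction by edgeR with library totals, against 15 higher and 5 lower with no low-count filter, 12 higher by DESeq2, 11 higher with limma-voom quality weights, 0 to 12 higher as each library was left out (12 without attached replicate 2), and, chosen after seeing the data, 22 higher and 1 lower with TMM and 25 higher and 5 lower with DESeq2, both without attached replicate 2. The replicate numbers are shared by 2 pairs of libraries, whose deviations from the group means correlated at -0.27 (replicates 1) and -0.25 (replicates 2). With 2 detached libraries the deviations of each mirror those of the other, so these values cannot decide whether cultures were paired. The labels do not say that replicate numbers pair cultures, and the main fit did not pair them. The block gave 1.03 for miR-205-5p, -0.40 for miR-205-3p and 2.74 for miR-31-3p, with 0 miRNAs called. Replicate 3 has an attached library only, so the block's fold changes rest on replicates 1 and 2 alone. They therefore lean more on attached replicate 2 than the main fit does. With 2 detached libraries, the fits without a detached replicate assume that the other varies like the attached ones. The lowest count of these miRNAs in any library was 55.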
